A study of Arabidopsis thaliana with 9 samples.

Results

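The 50 genes described here control the cell cycle of Arabidopsis thaliana: 9 B-type, 7 A-type and 9 D-type cyclins, 5 cyclin-dependent kinases (CDKs), 9 CDK inhibitors (7 KRP genes, SIM and SMR1), 5 activators of the anaphase-promoting complex (CCS52A1, CCS52A2, CCS52B, CDC20.1 and CDC20.2), 4 E2F-family genes, RBR1 and WEE1. They were chosen by gene identifier. All 50 were present among the 23241 genes of the nucleus and whole-cell tables and among the 33550 genes of the bulk table, and 79 of 20803 accessible chromatin regions overlapped them. The families are compared with one another across root cell clusters, between nuclei and whole cells, and between intact and protoplasted roots.

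All 9 samples were roots of Col-0, the standard laboratory accession, and the labels name no mutation, transgene or treatment. Nuclei for 5 RNA libraries and 2 accessibility libraries came from whole roots of 7-day-old seedlings kept in a light and dark cycle, which were chopped, filtered and sorted by flow cytometry. Bulk RNA was sequenced in 2 libraries of 6-day-old seedlings kept in continuous light and at a lower temperature: 1 from intact tissue and 1 from protoplasts, which are cells freed from their walls by enzymes. The protocol gives root tips for both bulk libraries while the title of the intact library names the whole root. Unequal tissue in this pair cannot be told apart from the effect of protoplasting. No sample in the labels is a whole-cell library, so the plants and the preparation behind that table are unknown.

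Cyclins bind and activate CDKs, and the pairing changes as a cell moves from growth through DNA synthesis to division. D-type cyclins with CDKA;1 act on RBR1, the plant retinoblastoma protein, which restrains E2F transcription factors and thereby the genes for DNA synthesis. B-type cyclins and the plant-specific B-type CDKs act around mitosis. The anaphase-promoting complex ends each round by marking cyclins for destruction, with CDC20 or CCS52 proteins choosing its targets. KRP and SIM-family proteins inhibit CDKs, and in roots SIM, SMR1 and CCS52A1 are known for promoting endoreduplication, in which DNA is copied without division.

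The nucleus table held 1 average per gene for each of 21 numbered clusters, pooled over the 5 libraries and scaled to 10000 per cluster, and the whole-cell table held the same for 20 clusters, with no cluster 14. Levels in them are therefore given per 10000 transcripts. There was no replicate value, and neither depth nor the number of nuclei per cluster could be read from the files, so every difference below describes these tables and carries no test or error. Of the markers of mitosis that are not among the 50 genes, 5 of 5 were highest in nucleus cluster 10, with KNOLLE at 7.04 there and 0.222 in the next cluster. Of the markers of DNA replication, 5 of 6 were highest in cluster 9. Among these 5, MCM3 was nearly level between clusters, at 0.542 in cluster 9 and 0.534 in cluster 20. The exception, MCM2, was at 1.07 in cluster 20 and 0.829 in cluster 9. Cluster 10 is called the mitosis-like cluster and cluster 9 the replication-like cluster on these grounds. Clusters 14 and 16 carried markers of suberized and of Casparian-strip endodermis, 18 of pericycle, 19 of phloem and 21 of xylem, and the remaining clusters rested on fewer than 3 markers of any cell type and are given by number. The clusters were drawn by the authors from expression, so the height of a gene in a cluster is a description of that cluster as much as of the gene.

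More of the 50 genes were highest in the mitosis-like cluster than in any other. In nuclei, 39 of the 50 reached a floor of 0.5 per 10000 in their highest cluster, as did 56.0% of all genes. Of these 39, 22 were highest in cluster 10, where 6.60% of all genes at the floor were highest, and 6 were highest in cluster 9, where 10.6% were. Without the floor the counts were 25 and 9 of the 50, beside 7.99% and 11.6% of all genes. The 50 genes together summed to 136 per 10000 in cluster 10, 16.5 in cluster 9, 15.3 in cluster 17 and 2.44 in cluster 1, where the sum was lowest. Among the 39 genes, 15 stood at least 4-fold above their next cluster, as did 8.39% of all genes at the floor. These 15 were 8 B-type cyclins, 2 A-type cyclins, 2 B-type CDKs, CCS52B and both CDC20 genes.

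**Figure D1:**
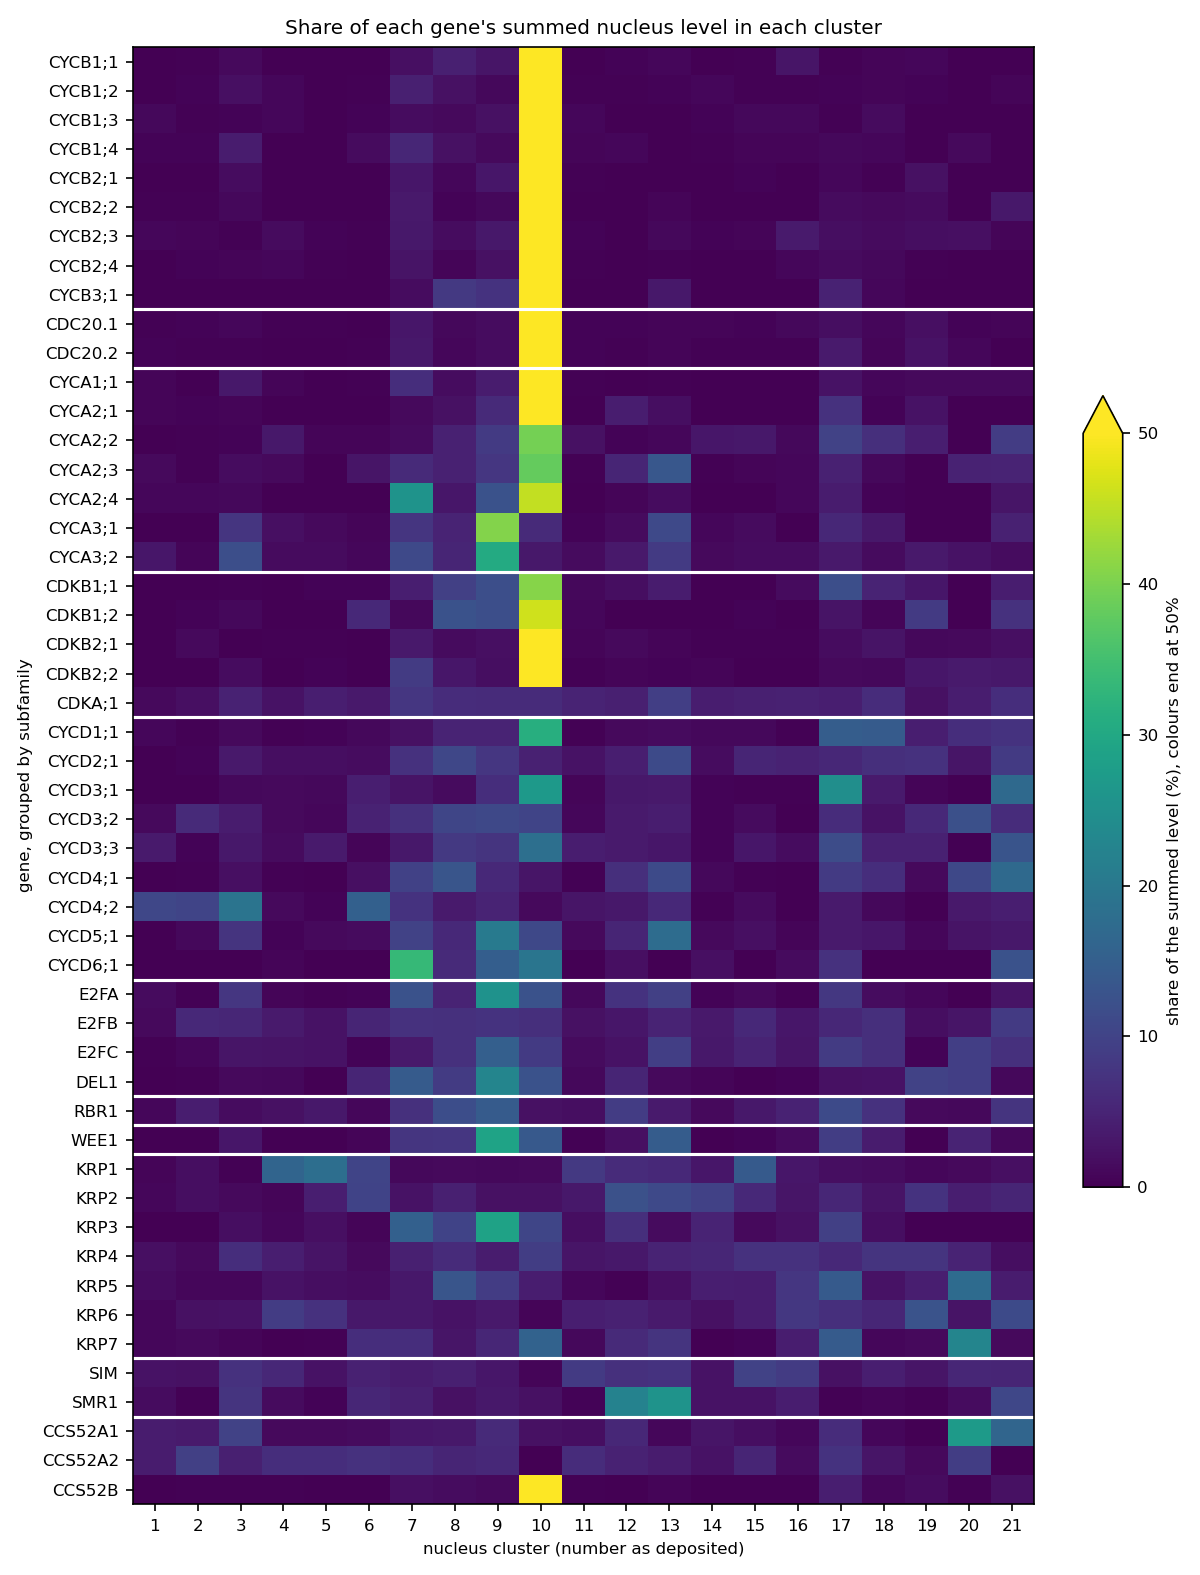
Each row is 1 of the 50 genes and each column 1 of the 21 nucleus clusters, and the colour gives the percent of the gene's level, summed over clusters, that lies in that cluster (colours end at 50%). The B-type cyclins, CDC20 genes and CCS52B fill cluster 10, while the rows of D-type cyclins and inhibitors spread over many clusters.

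The families differed in how far a single cluster held their transcripts. For each gene, the share of its level summed over the 21 clusters that lay in its highest cluster was taken. An even spread gives 4.76%, and the median of all genes at the floor was 15.04%. The median share was 83.9% for the B-type cyclins, 82.5% for the CDC20 genes, 46.4% for the CDKs and 40.6% for the A-type cyclins. It was 19.3% for the D-type cyclins, 17.5% for the KRP genes and 17.8% for SIM and SMR1. The map of shares shows the same order, with narrow rows for the mitotic genes and broad ones for the D-type cyclins and inhibitors.

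B-type cyclins, the partners of CDKs at mitosis, resembled one another closely. All 9 were highest in cluster 10, with shares from 73.5% to 88.0%. CYCB1;2 (AT5G06150) was at 6.10 in cluster 10, at 0.326 in cluster 7, its next highest, at a median of 0.0311 over the 21 clusters, and at 0 in 2 of them. CYCB2;2 (AT4G35620) was at 6.13 in cluster 10, at 0.241 in cluster 7 and at a median of 0.0195. Cluster 10 thus lay far above every other cluster for both subtypes. CYCB2;4 (AT1G76310) was at 5.15, CYCB1;4 (AT2G26760) at 4.24, CYCB2;3 (AT1G20610) at 4.15 and CYCB1;3 (AT3G11520) at 3.33 in cluster 10, between 14.4-fold and 38.1-fold above their next cluster. CYCB1;1 (AT4G37490), whose promoter and destruction box drive a widely used reporter of dividing cells, was at 1.91 in cluster 10 and at 0.102 in cluster 8. CYCB3;1 (AT1G16330) stayed under the floor, at 0.483 in cluster 10 and at 0 in 13 clusters. Over the 21 clusters, the Pearson correlation of log2 levels between pairs of B-type cyclins ranged from 0.869 to 0.970 in 36 pairs, with a median of 0.938. The clusters share libraries and scaling, so these correlations are descriptions of the tables.

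The activators that direct the anaphase-promoting complex to mitotic cyclins followed the B-type cyclins. CDC20.1 (AT4G33270) was at 24.7 in cluster 10, at 0.886 in cluster 7 and at a median of 0.189. CDC20.2 (AT4G33260) was at 31.4 in cluster 10, at 1.39 in cluster 17 and at a median of 0.151. These are neighbouring and similar genes whose reads could have been split between them, so their sum is the safer value, at 56.1 in cluster 10 and 2.098 in cluster 7. CCS52B (AT5G13840), the CCS52 form known from mitotic cells, was at 14.9 in cluster 10, at 0.752 in cluster 17 and at 0.413 in the xylem-like cluster 21. The other CCS52 genes had different patterns. CCS52A1 (AT4G22910), known for promoting the switch to endoreduplication, was at 1.16 in cluster 20, at 0.693 in cluster 21, at 0.422 in cluster 3 and at 0.0932 in cluster 10. CCS52A2 (AT4G11920) did not reach the floor, with at most 0.245 in cluster 2, and was listed at 0 in clusters 10 and 21. The pairwise correlation among the CCS52 genes had a median of 0.00488 over 3 pairs, whereas CCS52B reached 0.948 with a B-type cyclin.

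A-type cyclins split by subtype between the mitosis-like and the replication-like cluster. CYCA1;1 (AT1G44110) was at 4.43 in cluster 10 and at 0.384 in cluster 7, a pattern like that of the B-type cyclins. All 4 CYCA2 genes, whose proteins are known to delay endoreduplication, were also highest in cluster 10. CYCA2;1 (AT5G25380) was at 1.29 there and at 0.129 in cluster 17, with 72.2% of its level in cluster 10, and CYCA2;2 (AT5G11300) was at 0.872 and 0.219 in the same clusters. CYCA2;3 (AT1G15570) was at 1.29 in cluster 10 and at 0.461 in cluster 13. CYCA2;4 (AT1G80370) was at 0.948 in cluster 10, at 0.536 in cluster 7 and at a median of 0.0165. The CYCA3 genes, which are associated with the entry into DNA synthesis, were highest in cluster 9 instead. CYCA3;2 (AT1G47210) was at 1.71 in cluster 9, at 0.669 in cluster 3 and at 0.184 in cluster 10. CYCA3;1 (AT5G43080) was at 1.49 in cluster 9, at 0.407 in cluster 13 and at 0.222 in cluster 10. The family sum was 9.24 in cluster 10 and 4.25 in cluster 9, and the median pairwise correlation was 0.608 over 21 pairs.

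Among the CDKs, the B-type genes marked cluster 10 and CDKA;1 marked none. CDKB2;1 (AT1G76540) was at 4.68 in cluster 10 and at 0.2002 in cluster 7, and CDKB2;2 (AT1G20930) was at 3.38 and 0.418 in the same clusters. The CDKB1 genes were less sharply placed: CDKB1;1 (AT3G54180) was at 1.07 in cluster 10, 0.316 in cluster 17 and 0.313 in cluster 9, and CDKB1;2 (AT2G38620) at 0.690 in cluster 10, 0.188 in cluster 8 and 0.180 in cluster 9. CDKA;1 (AT3G48750), the main CDK, which acts at both the entry into DNA synthesis and mitosis, ranged from 0.105 in cluster 1 through a median of 0.379 to 0.793 in cluster 13. Its value in cluster 10 was 0.527 and in cluster 9 it was 0.532, so neither stood out.

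D-type cyclins, which couple growth and hormone signals to cell cycle entry, were spread over many clusters. Their sum was 7.09 in cluster 10, 4.36 in cluster 17, 3.44 in the xylem-like cluster 21 and 0.338 in cluster 4, where it was lowest. CYCD1;1 (AT1G70210) was at 4.14 in cluster 10, at 1.95 in cluster 17 and at 1.89 in the pericycle-like cluster 18. CYCD3;1 (AT4G34160), a cytokinin-responsive cyclin, was at 1.28 in cluster 10, at 1.17 in cluster 17 and at 0.815 in cluster 21. The gap between cluster 10 and cluster 17 was 2.12-fold for CYCD1;1 and 1.09-fold for CYCD3;1, far smaller than for the B-type cyclins. CYCD2;1 (AT2G22490) was at 0.563 in cluster 13 and 0.531 in cluster 8, and CYCD3;2 (AT5G67260) at 0.530 in cluster 20 and 0.476 in cluster 9. CYCD5;1 (AT4G37630) was at 0.632 in cluster 9 and at 0.548 in cluster 13. The remaining 4 D-type cyclins stayed under the floor, with highest values from 0.172 to 0.453. No D-type cyclin at the floor stood 4-fold above its next cluster, and the median pairwise correlation in the family was 0.493 over 36 pairs.

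The genes of the RBR1 and E2F pathway were highest in the replication-like cluster. E2FA (AT2G36010), an activating E2F, was at 0.756 in cluster 9, 0.376 in cluster 10 and 0.372 in cluster 7. E2FC (AT1G47870), described as a repressing form, was at 0.504 in cluster 9 and 0.313 in cluster 13. RBR1 (AT3G12280) was at 0.748 in cluster 9, 0.609 in cluster 8, 0.584 in cluster 17 and 0.121 in cluster 10, so it was lower in the mitosis-like cluster than in these. Under the floor, DEL1 (AT3G48160), an atypical E2F that restrains endoreduplication, was at 0.359 and WEE1 (AT1G02970), the kinase of the replication checkpoint, at 0.469, both in cluster 9. E2FB (AT5G22220) was the exception, at 0.264 in cluster 21 and 0.226 in cluster 9, with no cluster standing out.

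The CDK inhibitors at the floor were highest outside clusters 9 and 10, and most in different clusters. KRP1 (AT2G23430) was at 2.94 in cluster 5, at 2.60 in cluster 4 and at 2.30 in cluster 15, against 0.205 in cluster 10 and a median of 0.303. KRP2 (AT3G50630) was at 2.31 in cluster 12, at 2.07 in cluster 13 and at 1.89 in cluster 6, and at 0.430 in cluster 10. KRP6 (AT3G19150) was at 1.19 in the phloem-like cluster 19 and at 1.03 in the xylem-like cluster 21. Its lowest value, 0.0670, was in cluster 10. KRP7 (AT1G49620) was at 1.26 in cluster 20, but also at 0.865 in cluster 10 and at 0.796 in cluster 17, and KRP5 (AT3G24810) at 0.600 in cluster 20 and 0.488 in cluster 17. KRP4 (AT2G32710) and KRP3 (AT5G48820) stayed under the floor, at 0.453 in cluster 10 and at 0.237 in cluster 9. The 7 KRP genes had a median pairwise correlation of 0.0633, from -0.311 to 0.498 over 21 pairs, the lowest within-family median apart from that of the CCS52 genes.

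SIM (AT5G04470) and SMR1 (AT3G10525), also called LGO, belong to the inhibitor family named after the trichome mutant siamese. SIM was at 1.21 in cluster 15, at 1.06 in the Casparian-strip cluster 16 and at 1.04 in cluster 11, at a median of 0.524, and at its lowest, 0.0815, in cluster 10. SMR1 was at 1.30 in cluster 13, at 1.11 in cluster 12 and at 0.537 in cluster 21, at a median of 0.117, and at 0.115 in cluster 10. SIM was therefore broad with its minimum in the mitosis-like cluster, while SMR1 was concentrated in clusters 12 and 13. The correlation of either gene with the B-type cyclins had a median of -0.303 over 18 pairs. The summed level of the 9 inhibitors was 6.28 in cluster 13, 6.25 in cluster 12 and 5.62 in cluster 15, and 2.44 in cluster 10 and 2.45 in cluster 9. It was lowest, at 0.937, in cluster 1, where root hair markers were high, so clusters 9 and 10 were not the lowest for the inhibitors as a whole.

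**Figure D2:**
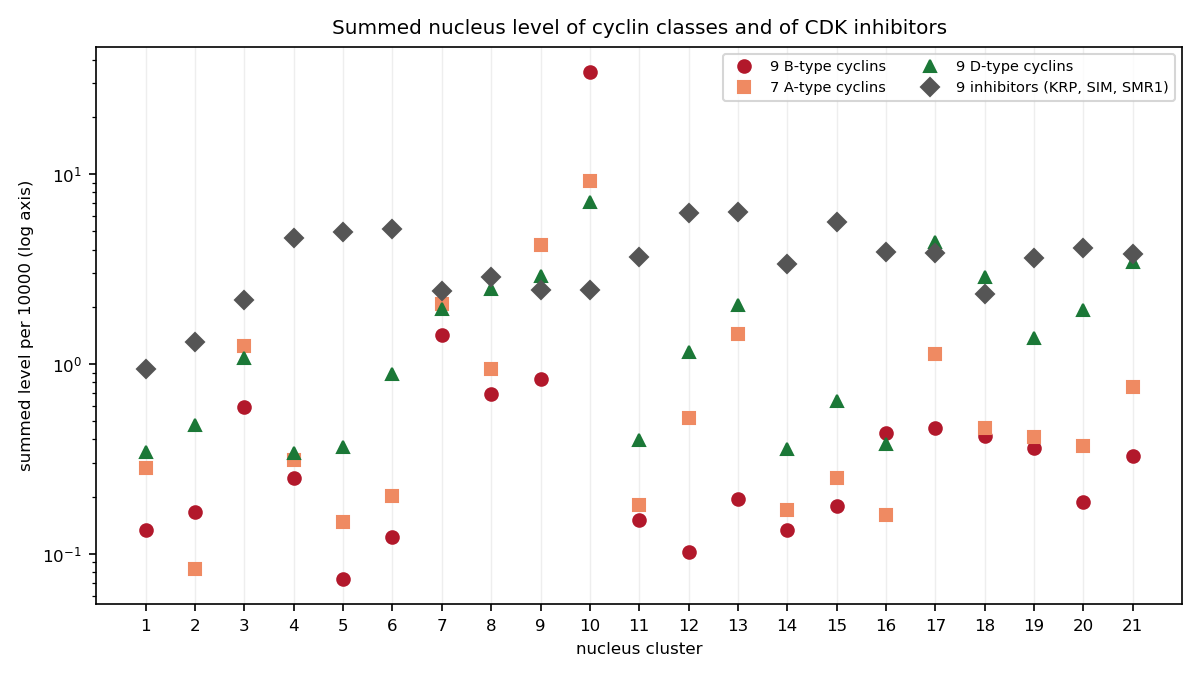
The summed level of each cyclin class and of the CDK inhibitors (per 10000 transcripts, log axis) is plotted for each of the 21 nucleus clusters. B-type cyclins reach 34.4 in cluster 10 against 1.42 in cluster 7, their next highest, while the inhibitors lie between 0.937 and 6.28 in every cluster.

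The plot of class sums shows the B-type cyclins with a single peak, the A-type cyclins with a second step in cluster 9, and the D-type cyclins with further high values in clusters 17, 21, 9 and 18. In cluster 17 the D-type cyclins summed to 4.36 and the B-type cyclins to 0.458. In cluster 21 the same sums were 3.44 and 0.326.

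Genes that work with these 50 were taken from 7 lists of 49 genes in all. Of the 11 spindle and cytokinesis genes at the floor, 5 are markers that gave cluster 10 its name, KNOLLE among them. Of the other 6, 5 were highest in cluster 10, with the spindle checkpoint gene MAD2 at 7.49. The Aurora kinase gene AUR2 was the exception, at 24.4 in cluster 16 and 1.85 in cluster 10. Of the 14 replication genes at the floor, 6 are the markers used to name cluster 9, including TSO2 at 4.73 and the histone gene HIS4 at 3.42. Of the other 8, 6 were highest in cluster 9, among them the ribonucleotide reductase gene RNR1 at 2.26, and 1 in cluster 10. Of these 6, MCM7 was at 0.611 in cluster 9 and 0.600 in cluster 8. CDT1A was at 0.630 in cluster 9 and 0.607 in cluster 7, so both were nearly level with their next cluster. All 4 MYB3R genes, which encode regulators of mitotic transcription, were highest in cluster 10, with MYB3R1 at 3.64, MYB3R4 at 3.03 and MYB3R5 at 0.784. Of the 5 genes at the floor for CDK-activating kinases and CKS subunits, which bind CDKs, 3 were highest in cluster 10. There the subunit gene CKS2 was at 5.68 and CDKD;1 at 0.933, while CKS1 was at 1.90 in cluster 14. The E2F partner gene DPA was highest in cluster 9 at 0.678 and DEL3 in cluster 10 at 1.14. The inhibitors of the anaphase-promoting complex UVI4 and OSD1 were highest in cluster 9 at 0.641 and in cluster 10 at 1.72. The other SIM-related genes were low, with 2 of 7 at the floor, AT5G02420 at 1.59 in cluster 4 and SMR7 at 0.591 in cluster 14, and neither was highest in cluster 9 or 10.

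The genes whose levels over the 21 clusters most resembled 4 of the members were read from 8230 genes at 1 per 10000 or more, by the Pearson correlation of log2 levels. For CDKB2;1 they were AT1G33615 (0.970), the checkpoint kinase gene BUBR1 (0.962), RIP4 (0.957), AT4G02800 (0.956) and MAD2 (0.954). For CYCA3;1 they were BRCA2(IV) (0.957), AT5G59970 (0.930), VIM3 (0.930), BRCA1 (0.927) and RPA70D (0.926), of which BRCA1 and BRCA2 act in DNA repair and RPA70D encodes a single-stranded DNA-binding subunit. The best matches of the inhibitor SIM were weaker, from 0.732 for ckl3 to 0.696 for the aquaporin gene PIP2A. Those of CCS52A1 ran from 0.835 for DTA4 to 0.757 for the cytokinin oxidase gene CKX3.

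In whole cells the mitotic genes were again highest in cluster 10, mostly at lower levels. The cluster numbers of the 2 tables were compared over 6389 genes without the 50: the same number gave the best match for 16 of 20 nucleus clusters, and nucleus cluster 10 correlated with cell clusters 9 and 10 about equally, at Spearman 0.507 and 0.504. In whole cells 28 of the 50 genes reached the floor, as did 31.4% of all genes, and 16 of these 28 were highest in cluster 10, as were 9.13% of all genes at the floor. One gene, CYCA3;2, was highest in cluster 9, where 7.30% of all genes at the floor were. In whole cells 15 of the 28 stood at least 4-fold above their next cluster, as did 6.31% of all genes at the floor, and these again included 8 B-type cyclins, CCS52B and both CDC20 genes. Of the 27 genes at the floor in both tables, 20 had the same highest cluster in both, as did 37.4% of all such genes. All 8 B-type cyclins, 3 A-type cyclins, both CDC20 genes and CCS52B were among these 20.

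Over the 20 shared clusters, each weighted equally and with 0.1 added to each mean, 15 of the 40 genes at the floor were 2-fold lower in whole cells and 0 were 2-fold higher. Among all genes, 43.0% were lower and 11.3% higher. The median log2 ratio of cells over nuclei was -0.87 for the 40 genes and -0.81 for all genes. Averaged over clusters in this way, the group lay beside the rest of the transcriptome. Within cluster 10 the median of the members at the floor was lower than that of all genes, but the floor fixed the direction for some members (below). Relative to the median gene, 5 were lower (CYCD1;1, KRP1, CCS52B, CDC20.1 and CDC20.2), beside 16.0% of all genes, and 5 were higher (CDKA;1, CYCD3;2, KRP5, SIM and SMR1), beside 23.7%. These differences could follow the table, the preparation or the plants, which cannot be told apart.

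Within cluster 10 the genes differed widely in their ratio. Of the 25 genes that reached the floor there in nuclei or in whole cells, 18 were 2-fold lower in whole cells, as were 45.9% of all genes. A gene that reached it in nuclei alone could only come out lower. Among the 18, KRP7, 3 A-type cyclins and 2 D-type cyclins were such genes. The 8 B-type cyclins, 1 B-type CDK, CCS52B and both CDC20 genes among the 18 reached it in both tables. How far the floor shaped the value for all genes was not tested. The median log2 ratio in cluster 10 was -1.62 for these 25 genes and -0.77 for all genes at the floor there. CDC20.2 was at 31.4 in nuclei and 1.21 in cells, CDC20.1 at 24.7 and 3.27, and CCS52B at 14.9 and 1.74. All 8 B-type cyclins at the floor were lower, by plain ratios from 2.35-fold for CYCB1;1 to 4.79-fold for CYCB2;2. The CDC20 genes and CCS52B thus had larger ratios than any of these B-type cyclins, although all were highest in the same cluster. CYCA1;1 was at 4.43 in nuclei and 0.452 in cells, and CYCA2;1 at 1.29 and 0.0243. By contrast CYCA2;4 was at 0.948 and 1.03, CDKB1;2 at 0.690 and 0.894, and CDKB2;2 at 3.38 and 2.28. Close relatives therefore differed in level between the tables: in cluster 9 CYCA3;2 was at 1.71 in nuclei and 1.38 in cells, but CYCA3;1 at 1.49 and 0.0721.

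CYCD1;1 was among the genes placed differently by the 2 tables. In nuclei it was at 4.14 in cluster 10, and in whole cells at 0.0167 there and at its highest, 0.538, in cluster 20. The locus AT1G70209, which overlaps CYCD1;1, was not among the genes of the cluster tables, and its part in the nucleus value was not tested. The sum of the D-type cyclins in whole cells was accordingly highest in cluster 20, at 2.13, then at 1.80 in cluster 17 and 1.64 in cluster 10. SIM and SMR1 went the other way, with highest values of 1.92 in cluster 16 and 1.73 in cluster 13 in whole cells against 1.21 and 1.30 in nuclei, and SIM again had its lowest value, 0.101, in cluster 10. CCS52A1 and KRP7, highest in nucleus cluster 20, were highest in cell clusters 1 and 10, at 0.299 and 0.238. E2FA and E2FC, highest in nucleus cluster 9, were highest in cell cluster 10, at 0.125 and 0.151. The whole-cell values of CCS52A1, KRP7, E2FA and E2FC were under the floor.

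**Figure D3:**
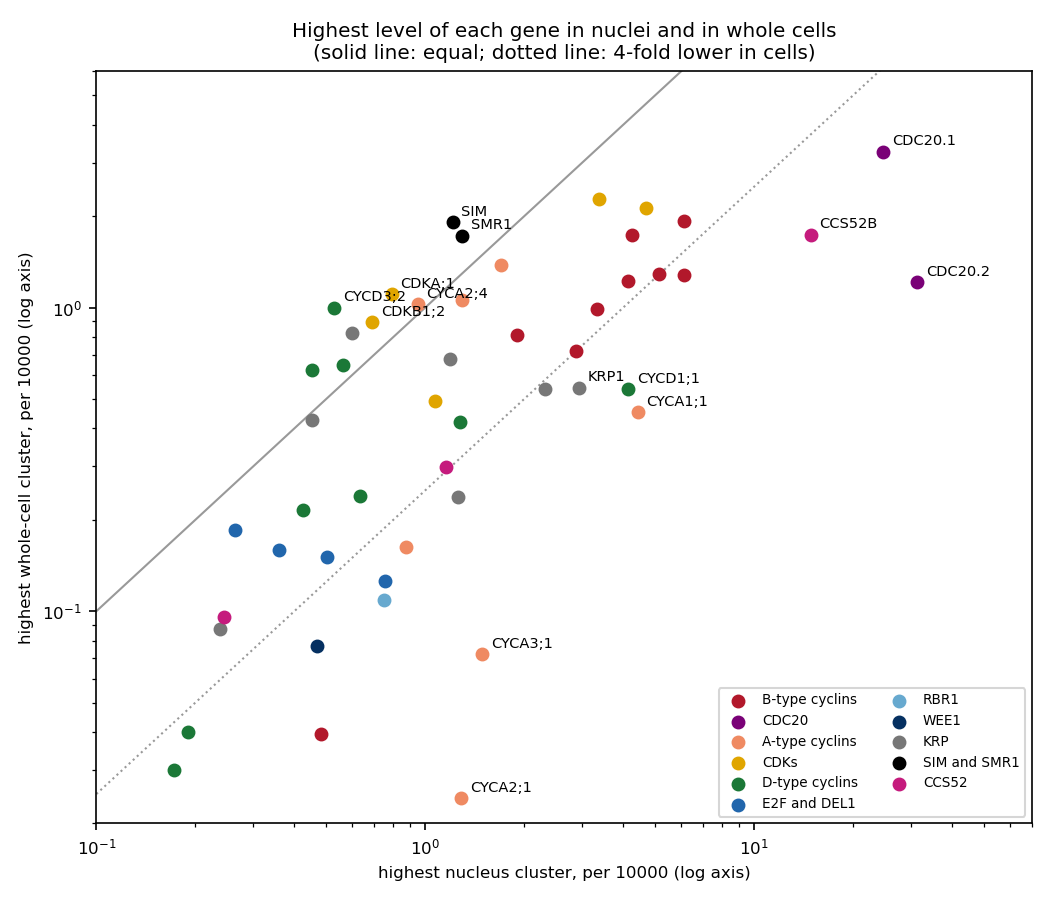
Each point is 1 of the 50 genes, with its highest nucleus cluster on the x axis and its highest whole-cell cluster on the y axis (per 10000 transcripts, both log axes). CDC20.1, CDC20.2 and CCS52B lie below the line of a 4-fold difference, while SIM, SMR1, CDKA;1 and CYCD3;2 lie above the line of equality.

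The plot of highest levels in nuclei and cells separates the families: the B-type cyclins at the floor form a band on either side of the 4-fold line, the B-type CDKs lie nearer equality, and CYCA2;1 and CYCA3;1 lie far below both lines.

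In the bulk libraries, transcripts of the B-type cyclins, B-type CDKs and CDC20 genes were lower in protoplasts than in intact tissue. So were those of the inhibitors KRP1, KRP2 and SIM, while those of KRP5, KRP7 and CCS52A1 were higher by less than 2-fold. The deposited values were read as FPKM (fragments per length and per library), the unit being inferred from the values, and genes reaching 5 FPKM in 1 or both libraries were compared with 1 FPKM added. Of the 35 genes at this floor, 22 were 2-fold lower in protoplasts and 0 were 2-fold higher. Among all genes at the floor, 30.3% were lower and 11.4% higher. A gene that reached 5 FPKM in the intact library alone could only come out lower. Every B-type cyclin, B-type CDK and CDC20 gene at the floor was such a gene. Without the floor, 29 of the 50 genes were 2-fold lower and 0 were 2-fold higher. At the floor, the log2 ratio was -0.46 for the median of all genes and -1.07 for the median of the 35. Relative to the median gene, 11 were lower and 2, KRP7 and CCS52A1, were higher, beside 18.8% and 17.4% of all genes. With 1 library of each kind there is no replicate check, and fewer cells of a type and less RNA per cell cannot be told apart in bulk samples.

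All 6 B-type cyclins at the floor were 2-fold lower, with a median log2 ratio of -1.83, and 5 of them remained past 2-fold relative to the median gene. These 6 reached the floor in the intact library alone, which fixed the direction of their ratio but not its size. The other 3 were below the floor in both libraries, with log2 ratios of -1.34 for CYCB1;1 and -1.04 for CYCB2;1 and CYCB3;1. CYCB1;3 was at 7.99 FPKM in intact tissue and 0.621 in protoplasts, CYCB1;4 at 7.90 and 0.961, and CYCB2;4 at 5.80 and 0.95. CDC20.1 was at 10.1 and 1.54 FPKM and CDC20.2 at 6.76 and 0.368, a log2 ratio of -2.50 and the lowest among the 35 genes. All 4 B-type CDKs were 2-fold lower, from 12.6 to 3.98 FPKM for CDKB1;1 and from 11.2 to 3.89 for CDKB2;1, but relative to the median gene only CDKB1;2 was. CDKA;1 was at 35.4 and 24.1 FPKM, within 2-fold and close to the median gene. The 5 D-type cyclins at the floor were all lower, but CYCD3;3 at -1.001, CYCD3;1 at -1.02 and CYCD4;1 at -1.07 were just past 2-fold, while CYCD2;1 went from 29.8 to 9.84 FPKM and was the 1 D-type cyclin still 2-fold lower relative to the median gene. Of the 3 A-type cyclins at the floor only CYCA3;2 was lower, at 13.8 and 5.24 FPKM. CYCA2;4 was at 4.94 and 5.04, and CYCA2;3 at 7.54 and 10.9. Below the floor in both libraries, CYCA1;1, CYCA2;2 and CYCA3;1 were also past 2-fold lower, at log2 ratios of -1.35, -1.17 and -1.40. CYCA2;1, also below the floor, was within 2-fold at -0.45.

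The value of CYCA2;3 is uncertain, since its locus overlaps that of the auxin response gene IAA5, which was at 0.248 FPKM in intact tissue and 73.2 in protoplasts, and it is not stated whether counting used the strand. The locus of CCS52B likewise overlaps that of NACA3, at 118 and 46.3 FPKM, and CCS52B itself was at 8.86 and 2.79. In all, 17 of the 50 genes overlap another locus in the annotation.

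The inhibitors and the RBR1 pathway were mixed in bulk. KRP1 was at 14.01 FPKM in intact tissue and 4.32 in protoplasts, KRP2 at 55.6 and 26.9, and SIM at 75.2 and 26.0, and these 3 were past 2-fold lower. SMR1, at 51.005 and 25.1, missed it with a log2 ratio of -0.99. KRP4 was at 13.2 and 11.001 FPKM, KRP6 at 19.7 and 16.8, KRP5 at 6.67 and 9.96 and KRP7 at 6.13 and 9.49. CCS52A1 had the highest log2 ratio of the 35, at 18.2 and 31.95 FPKM. RBR1 was at 10.98 and 7.41, E2FC at 9.11 and 6.32 and E2FB at 3.94 and 5.81, all within 2-fold. On the per-length FPKM scale, SIM, KRP2 and SMR1 had the highest levels of the 50 genes in intact tissue, above CDKA;1 at 35.4.

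**Figure D4:**
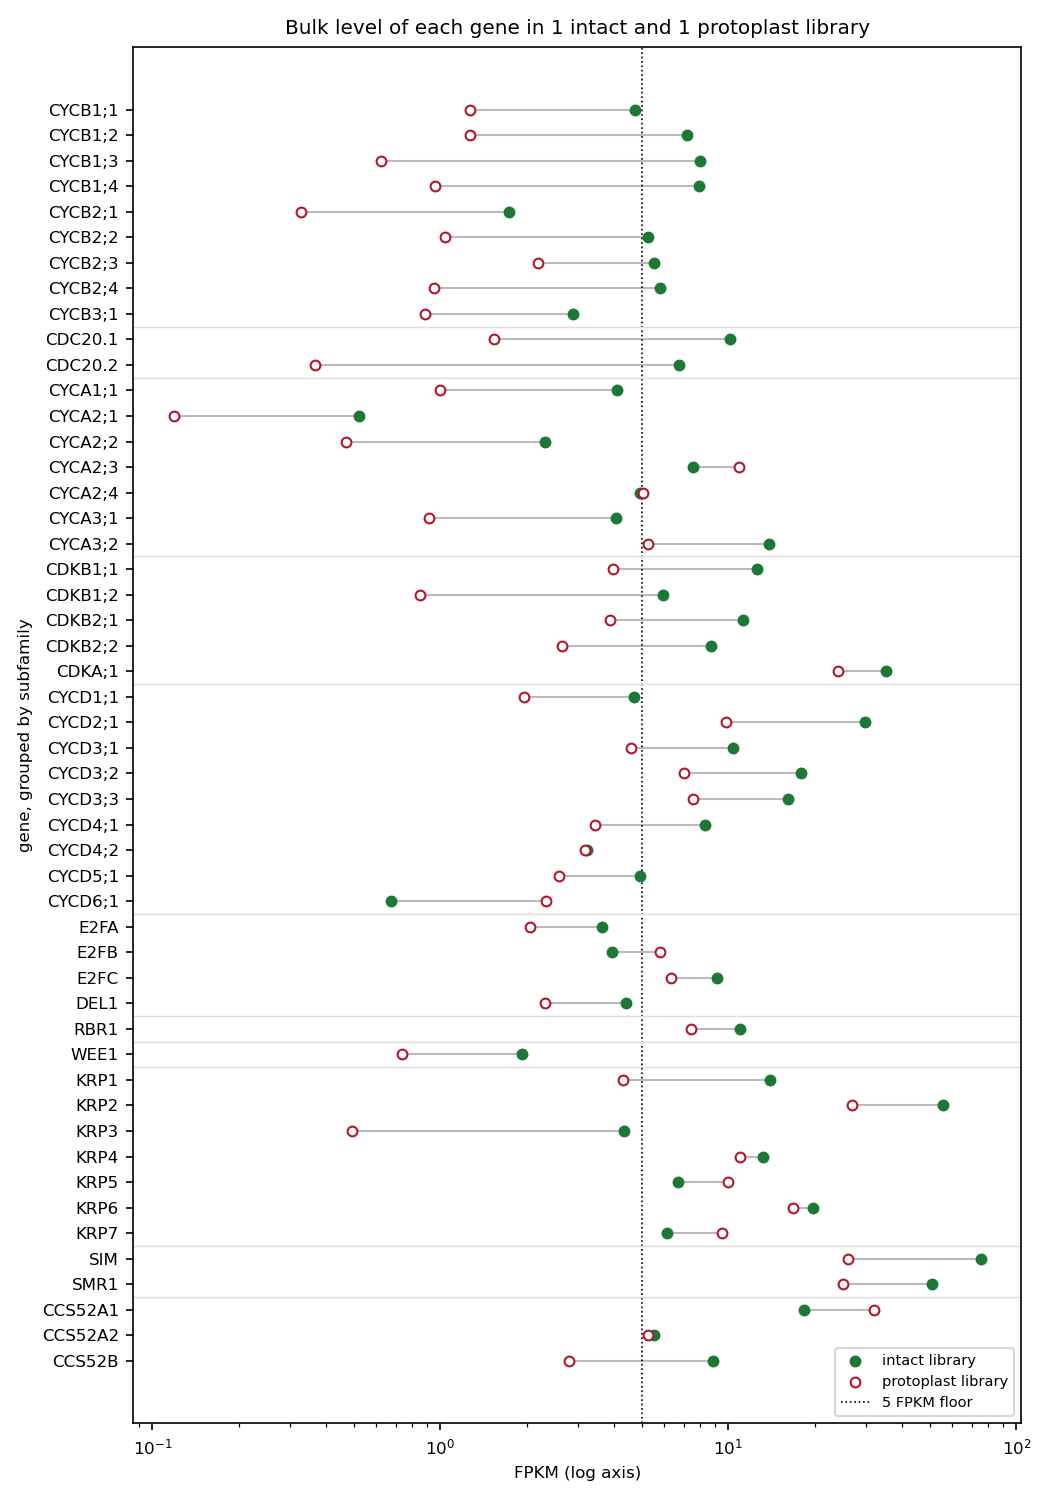
For each of the 50 genes the FPKM in the intact library (filled) and in the protoplast library (open) are joined by a line on a log axis, and the dotted line marks the 5 FPKM floor. All B-type cyclins, CDC20 genes and B-type CDKs have the open symbol to the left, while CCS52A1, KRP5, KRP7 and E2FB have it clearly to the right.

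The plot of bulk levels shows this as long lines for the mitotic genes and for KRP1, KRP3 and SIM, and short ones for KRP4, KRP5, KRP6 and KRP7. Of the listed partner genes at the floor, 8 of 12 replication genes, 4 of 6 spindle and cytokinesis genes and 3 of 4 genes for CDK-activating kinases and CKS subunits were 2-fold lower in protoplasts. Among all genes at the floor 30.3% were lower and 11.4% higher. Relative to the median gene the 3 counts were 4, 3 and 2, beside 18.8% of all genes. The replication gene list had a median log2 ratio of -1.25 and the spindle list -1.41. The other SIM-related genes differed from SIM: 1 of 7 was lower and 3 were higher, with SMR4 at 1.56 FPKM in intact tissue and 35.4 in protoplasts, AT1G10690 at 6.93 and 26.8, and AT5G40460 at 6.01 and 15.6. Of the 4 MYB3R genes 2 were higher, MYB3R4 at 2.46 and 6.12 FPKM and MYB3R5 at 3.64 and 8.39. Both, like SMR4, reached the floor in protoplasts alone and so could only come out higher. The B-type cyclins at the floor, which peak in the same nucleus cluster, reached it in the intact library alone. The 2 groups therefore cannot be contrasted by direction.

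Chromatin over the 50 genes was most accessible in the mitosis-like cluster for many of the mitotic genes. Accessibility was read from the regions that overlap each gene, scaled to 10000 per cluster, with cluster numbers as deposited. How nuclei of the accessibility libraries were given these numbers is not given in the sources used here. Of the 79 regions, 20 (25.3%) were highest in cluster 10 and 9 (11.4%) in cluster 9, beside 9.28% and 4.67% of all regions. For B-type cyclins 8 of 16 regions, over 7 of the 9 genes, were highest in cluster 10, and for the CDC20 genes 3 of 3. For D-type cyclins the count was 2 of 16, for KRP genes 1 of 9, and for SIM, SMR1 and the CCS52 genes 0 of 7.

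The region with the highest value, at chr4:16046678-16047465 (TAIR10), overlaps CDC20.1 and 1 other gene. Its accessibility was 3.51 in cluster 10, 0.9503 in cluster 9 and 0.462 in the median cluster. A region of CDC20.2, at chr4:16043310-16043667, was at 2.15 in cluster 10, 1.39 in cluster 16 and 1.38 in cluster 9, with a median of 0.464. For CYCB1;2 the region chr5:1859624-1859948 was at 2.18 in cluster 10, at 1.17 in cluster 21, its next highest, and at 0.456 in cluster 9. For CYCB1;1 the region chr4:17621174-17623112, which overlaps 3 genes, was at 1.75 in cluster 10 and 0.923 in cluster 9. These regions were therefore open in cluster 10 well beyond their median cluster, as the transcripts were. The other regions of CYCB1;1 and CYCB1;2 were highest in clusters 7 and 9. That of CDC20.2 was at 0.797 in cluster 10 and 0.786 in cluster 3. For CYCB2;4 the region chr1:28626878-28628161, which overlaps 2 genes, was about as open in cluster 9 as in cluster 10, at 2.03 and 2.20, whereas its nucleus transcript was at 0.126 and 5.15 in these clusters. CYCA2;4 had a region highest in cluster 9, at 1.61 (chr1:30212675-30213875), while its transcript was highest in cluster 10. RBR1 had one that overlaps 2 genes, at 1.37 in cluster 9 (chr3:3912650-3914895), the cluster in which its transcript was also highest. The other regions of CYCA2;4 and RBR1 were highest in cluster 4, at 1.005 and 0.766, and were at 0.505 and 0.425 in cluster 9.

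**Figure D5:**
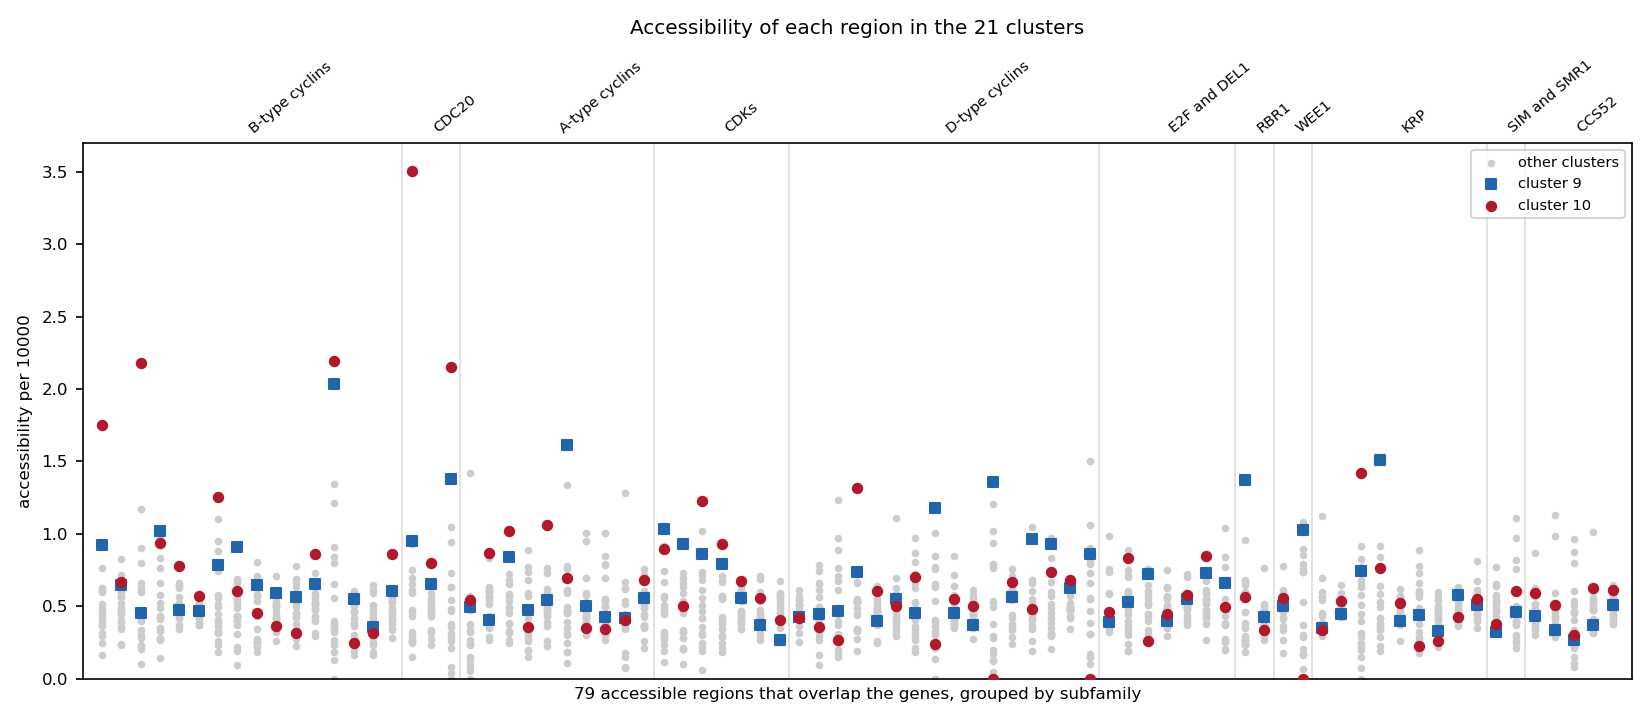
Each column is 1 of the 79 regions, grouped by family, and the points give its accessibility (per 10000) in the 21 clusters, with cluster 9 as squares and cluster 10 as larger circles. Cluster 10 stands above the other clusters for a region of each of CYCB1;1, CYCB1;2, CDC20.1 and CDC20.2, up to 3.51. It lies within the others for most regions of the D-type cyclins and inhibitors.

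For other genes accessibility and transcript level did not run together. The regions of CYCB2;2, which overlap 4 and 3 genes, were at 0.363 and 0.318 in cluster 10. Both values were below the median cluster, at 0.453, while the transcript of CYCB2;2 was at 6.13 in cluster 10. The regions of CYCA3;1 were highest in clusters 14 and 7, not in cluster 9, and both regions of CDKA;1 ran against its transcript, with Spearman correlations over the 21 clusters of -0.49 and -0.73. The region of CCS52B spans 22156 bases from start to end and overlaps 15 genes, so its value says little of that gene, and its correlation was 0.0026. SMR1 was at the other end, with a correlation of 0.87. Its region of 9926 bases was at 1.11 in cluster 13 and 0.973 in cluster 12, the same clusters as its transcript. That region overlaps 4 genes, so its value is not that of SMR1 alone. Over the genes at the nucleus floor, 79.3% of 58 pairs of region and gene had a positive correlation, with a median of 0.30, and over other genes 74.4% of 19571 pairs did, with a median of 0.25. The 50 genes were thus close to the rest in this respect. The plot of accessibility also shows single values of 0, which occurred in 8 of the 79 regions and in 3018 of all regions.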

How the data were processed

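Arabidopsis Col-0 root nuclei (5 RNA and 2 accessibility libraries) and 2 bulk RNA libraries were measured. Reads of nuclei were handled with Cell Ranger 3.1.0 for RNA, with Cell Ranger ATAC 1.2 for accessibility, and with Signac 0.2.5 and Seurat 3.1.5 thereafter, all on TAIR10, per the submitters' processing notes. The same notes name TopHat2 2.0.11 with Bowtie2 2.1.0, FastQC and SAMtools 0.1.19. The cluster tables hold 1 average signal per gene or region and cluster, as deposited by the authors, pooled over libraries. Nucleus and cell columns sum to 10000, and accessibility columns, from 10532 to 14125, were rescaled to 10000. The bulk values the authors deposited were taken as FPKM, since no header names a unit. Depth, nuclei per cluster and the treatment of droplets holding several nuclei are not given in the sources used here. A transcript-level fold understates low genes, because 0.1 (cluster means) or 1 (FPKM) was added before the log2 ratio. Genes were counted only if they reached 0.5 per 10000 or 5 FPKM in either table or library. Folds between clusters are plain ratios.

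A gene or region was assigned to the cluster with its highest value, and a gene was called lower or higher at 2-fold. A cluster was named from 3 or more listed markers. Regions and genes were joined by an overlap of 1 base, with gene positions and overlapping loci from a RefSeq gene table of TAIR10.1, which has the same chromosome names. It names all 50 genes. Coordinates printed are those of the deposited table. Python 3.11.15, pandas 2.3.3, NumPy 2.4.6 and Matplotlib 3.10.9 were used, and the calculations were tested on simulated data. No value has a replicate, so no p-value is given.

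The members, the 7 lists of partner genes and the comparisons were chosen with earlier results of these data known. All members could be named, with full values for those at 0.5 per 10000 in nuclei and 5 FPKM in bulk. Of other genes, the 5 most alike to CDKB2;1, CYCA3;1, SIM and CCS52A1, and the 3 highest of each list were to be named. Members under either floor, the overlapping loci and the list genes SMR4, AT5G40460, MCM2, MCM3, MCM7 and CDT1A are given with values although the rule did not ask for them. They were chosen after their values were seen. The alternatives tried were other floors, other added values, centring on the median gene, the highest cluster in place of the mean, cluster 10 alone or left out, members that overlap no other locus, and other widths, scalings and correlations for accessibility.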

Additional observations from a re-analysis of the deposited data

How the results depend on the processing

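No median changed sign under the alternatives run, but relative to the median gene the cells held as many higher as lower genes, 5 and 5. With a floor of 1 per 10000 in nuclei, 2 genes in place of 6 were highest in cluster 9. A floor of 0.2 and no floor kept the counts for clusters 9 and 10 within 1.5 times, and the 4-fold count was 15 with 0.1 added to both values. The median log2 ratio of cells over nuclei, -0.87, became -1.62 with 0.01 added, -0.16 with 1 added, -1.51 in the highest cluster of each table, -0.71 without the floor, -1.12 in cluster 10 alone, -0.64 over the clusters other than 10 and -0.063 relative to the median gene. The count of lower genes, 15, became 27 with 0.01 added, 2 with 1 added, 26 in the highest cluster of each table, 9 without cluster 10 and 5 relative to the median gene, and the count of higher genes, 0, became 1 in cluster 10 alone and 5 relative to the median gene. The bulk median, -1.07, became -1.29 with 0.1 FPKM added, -0.83 with 5 added, -1.03 without the floor, -1.01 at a floor of 20 FPKM, -0.61 relative to the median gene and -1.05 over the 22 members at the floor that overlap no other locus. The 22 lower genes became 7 with 5 FPKM added, 3 of the 6 genes left at 20 FPKM, 11 relative to the median gene, where 2 were higher, and 14 of those that overlap no other locus. The median correlation of accessibility with nucleus level, 0.28, became 0.35 with columns as deposited, 0.32 by Pearson correlation of log2 values, 0.29 over regions of up to 3000 bases and 0.27 with 1000 bases added on either side. The floor of 20 FPKM and the limit to genes without an overlapping locus leave fewer genes by construction, and a larger added value shrinks every ratio. For the other settings the cause was not tested. Settings for cluster 10 alone, for clusters other than 10, for centring cells against nuclei, for overlapping loci, for wide regions and for flanks were chosen after seeing the data. A window upstream of each gene was planned and not run, because the gene table used gives no strand. No paired analysis was possible because each cluster has 1 pooled average and each bulk group 1 library.

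Low levels limit the cluster tables: 11.5% of the 1050 nucleus values and 18.1% of the 1000 whole-cell values of the 50 genes were 0, and the depth behind a 0 is unknown. Orders among clusters for genes under the floor, and for neighbours in order that differ little, have no error to be set against.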

Other observations

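CYCD6;1 (AT4G03270), known for formative divisions of the ground tissue, was at 0 in 10 of 21 nucleus clusters and highest in cluster 7, at 0.190, then at 0.111 in cluster 10. Its bulk level was 0.674 FPKM in intact tissue and 2.33 in protoplasts, under the floor in both, and its locus overlaps AT4G03260, at 52.4 and 27.2 FPKM. CYCD4;2 (AT5G10440) had its highest nucleus levels in clusters with epidermal markers, at 0.172 in cluster 3, where RHD6 was highest, 0.136 in cluster 6, where 2 non-hair markers were highest, and 0.0946 in cluster 1, where 2 root hair markers were highest.

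In cluster 10 KRP6 was at 0.0670 in nuclei and 0.308 in whole cells, both under the floor. SIM was also slightly higher in whole cells there, at 0.0815 and 0.101, and the other inhibitors were lower. AUR2, an Aurora kinase gene, was at 24.4 in nucleus cluster 16 and 1.85 in nucleus cluster 10, but in whole cells it was highest in cluster 10, at 5.32. Among the 40 genes at the floor in nuclei or whole cells, CCS52B, CDC20.1 and CDC20.2 had the lowest cell over nucleus log2 ratios, at -2.39, -2.58 and -3.62.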
